A study of Rattus norvegicus with 108 samples.

Results

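Voltage-gated sodium and calcium channel genes were described in single cells of the rat dentate gyrus. The members are all genes of the deposited count tables whose symbol begins with Cacn, or with Scn and a digit. There were 39 of them among 19127 genes. By role, 10 encode sodium channel pores, 4 sodium channel beta subunits, 4 L-type calcium pores, 3 pores of the P/Q, N and R types, 3 T-type pores, 4 alpha2delta subunits, 4 calcium channel beta subunits, and 7 gamma subunits or their relatives. The tables name Scn2a by its older symbol Scn2a1.

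Each sodium or calcium channel is built around 1 large pore protein that opens when the membrane is depolarized. Sodium pores carry the upstroke of the action potential, and their beta subunits set gating and placement in the membrane. Calcium pores of the P/Q and N types trigger transmitter release at nerve terminals, L-type pores couple activity to gene expression, and T-type pores open near the resting potential. The alpha2delta and calcium beta subunits bring calcium pores to the surface, whereas several gamma relatives, the TARPs, accompany AMPA-type glutamate receptors rather than calcium channels. The dentate gyrus is the input stage of the hippocampus. Its principal neurons, the granule cells, fire sparsely, and oligodendrocyte precursor cells (OPC) are glia known to express voltage-gated channels of their own.

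Punches of the dentate gyrus, dorsal (dorDG) or ventral (venDG), came from male rats, 2 months old when treatment began. They drank fluoxetine, a selective serotonin reuptake inhibitor, at 18 mg per kg body weight (FT) or water alone (Sham) for 6 weeks. No allele or other agent is named for any group. The study's methods state that each replicate pooled tissue of 3 animals. The labels speak of nuclei, while the methods describe suspensions of both cells and nuclei, and which suspension filled which 10x reaction is not given in the sources used here. "Cell" below means a barcode of either kind. There were 4 replicates of dorDG FT, whose numbers are 1, 2, 4 and 5, and 5 replicates each of dorDG Sham, venDG FT and venDG Sham. The p-values therefore measure the spread between pooled replicates.

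The tables held 1289 dorDG cells, each with 1 of 12 type names from the authors, and 2058 venDG cells without type names. Totals ranged from 220162 to 1523537 unique molecular identifiers (UMIs) per replicate. Of 3338 barcodes, 9 occurred in more than 1 reaction. Cells also differed in how many of their UMIs came from cytosolic ribosomal proteins: that share was under 2% in 39.7% of dorDG cells and 34.7% of venDG cells. In the 8 replicates with a pair of reactions, the first reaction held 4.08% to 15.5% of such ribosome-poor cells and the second 78.3% to 96.0%. Cell make-up also differed between dorDG replicates, which was not tested. Ribosome-poor cells gave 8.89% to 23.8% of the UMIs of FT replicates and 26.3% to 69.9% in Sham replicates, without overlap. By share of cells, the ranges of FT and Sham overlapped. Ribosome-poor cells made up 14.5% to 42.1% of the FT replicates and 31.9% to 72.0% of the Sham replicates, and cells of clusters led by neuron markers made up 7.07% to 19.3% and 4.35% to 41.0%. In Sham replicate 2 those clusters held 4.35% of cells, while the 3 type names taken as neurons below held 25.4%.

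Several type names went against their markers. Cells named InhibNeuron held 5.56 UMIs per 10000 over 8 inhibitory markers, about as many as Granule cells (5.55) and fewer than OPC (8.24). Their level of Slc32a1, the vesicular transporter of GABA, was 0.00 per 10000, whereas their sum over 8 granule cell markers, 12.8, was the highest of the 12 types. They are called InhibNeuron below only as a name. Cells named Mossy carried endothelial markers at 33.9 and mural markers at 28.1 per 10000 but pan-neuron markers at 3.67, so they were not counted as neurons. Cells named BergGlia had astrocyte markers at 106.5 and Bergmann glia markers at 6.83. Among the 119 Granule cells, 10 were led by blood genes and held 4.97 channel UMIs per 10000, against 50.1 in the other 109. When both regions were clustered anew, 36 of the 119 fell in neuron-like clusters (67.4 channel UMIs per 10000) and 65 in unnamed ones (33.5). All 119 are counted as neurons below. The names OPC, Oligodend, Microglia, Endothelial and AstroSub1 fitted their markers.

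The 39 genes together gave 35812 UMIs, 17583 in dorDG and 18229 in venDG. The 5 genes with the most UMIs, Cacna2d3, Cacna1c, Cacna1e, Cacnb2 and Cacna2d1, held 53.1% of them. Because 3′ libraries count 1 end of each molecule, these levels do not depend on transcript length in the way that full-length reads do, although capture can still differ between genes. Cacna2d3, an alpha2delta subunit, was at 5.29 UMIs per 10000 in dorDG and 4.66 in venDG. Cacna1c, the main L-type pore of the brain, was at 3.03 and 2.12. Genes best known from other tissues gave few UMIs over the whole series, as did the T-type pores Cacna1h (288) and Cacna1i (157). Cacna1s and Scn4a, pores of skeletal muscle, gave 113 and 256 UMIs, Scn10a and Scn11a of sensory neurons gave 111 and 282, and Cacna1f of the retina gave 28. The lowest were Cacng6 with 10 and Scn4b with 6.

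The dorDG types fell into a wide range of summed channel levels. ExcitNeuron (55 cells) had 71.3 channel UMIs per 10000 and InhibNeuron (147 cells) 71.1, followed by Granule at 40.8. AstroSub1 (22.9) and OPC (22.1) came next, then Mossy at 15.2. Endothelial, both Oligodend, both Microglia types and BergGlia lay between 9.57 and 11.98. These levels are descriptions with no test, since the types are clusters of the same cells. Over replicates with at least 5 cells, ExcitNeuron ranged from 56.9 to 117.4 (n = 4) and InhibNeuron from 49.7 to 87.8 (n = 6), so the top pair overlapped. Granule ranged from 15.4 to 87.8 (n = 9) and overlapped both. OPC ranged from 15.2 to 32.8 (n = 7) and AstroSub1 from 16.4 to 31.9 (n = 8). Every OPC replicate was below every InhibNeuron replicate, while OPC and AstroSub1 overlapped over nearly their whole range. In summed cells, fewer cells of a kind and less RNA per cell cannot be told apart.

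Cacna2d3 ranked first in 10 of 12 types, from 15.6 per 10000 in ExcitNeuron to 1.61 in BergGlia. Its level of 7.62 in AstroSub1 lay just under those of Granule (9.42) and InhibNeuron (9.96), and alpha2delta genes made up 38.7% of all channel UMIs in AstroSub1, the largest share of the 12 types. The exceptions were Mossy, led by Cacna1c at 3.06, and Microglia1, led by Cacna1e at 2.09. Cacna1e, the R-type pore, also ranked second in Microglia2 at 1.56, and the P/Q, N and R pores together held 30.5% of channel UMIs in Microglia1. Cacnb2, a calcium beta subunit, was among the top 3 in 8 types and was highest in ExcitNeuron (6.58) and InhibNeuron (6.53). Cacng4, a TARP, reached the top 3 in Microglia2 alone, at 0.622 from 20 UMIs. Pan-neuron markers stood at 3.36 to 8.57 per 10000 in the types outside the neurons and at 19.6 to 37.3 in the 3 neuron types. How much of the low channel levels in the other types was free RNA was not tested.

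**Figure D1:**
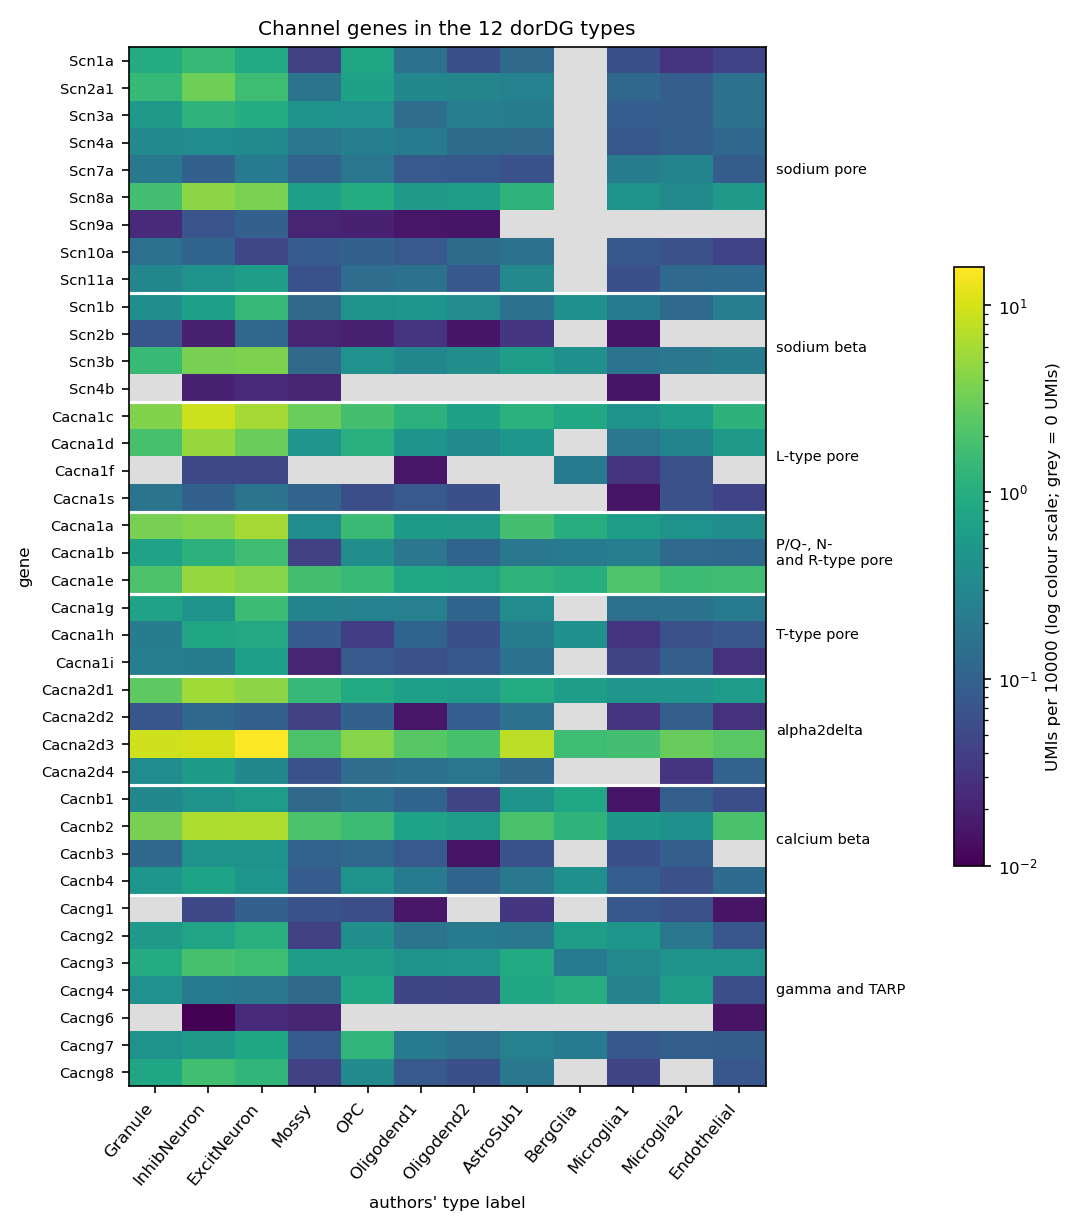
UMIs per 10000 of the channel genes, ordered by role, in the 12 dorDG types (colour on a log scale, grey where no UMI was found). Granule, InhibNeuron and ExcitNeuron are the brightest columns (highest levels), and Cacna2d3 is high in all 12 types, from 1.61 to 15.6.

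By level, most members were highest in a neuron type. Of the 39 genes, 16 were highest in ExcitNeuron, 14 in InhibNeuron, 3 each in AstroSub1 and BergGlia, and 1 each in Granule, OPC and Microglia2. For 11 of them the highest level rested on 5 UMIs or fewer, which were 5 of those in ExcitNeuron and all of those in AstroSub1 and BergGlia. All the L-type and sodium pore genes above 1 UMI per 10000 anywhere peaked in InhibNeuron: Cacna1c at 9.18, Cacna1d at 5.08, Scn8a at 4.47, Scn2a1 at 3.16, Scn1a at 1.41 and Scn3a at 1.22. The T-type pores, by contrast, all peaked in ExcitNeuron, with Cacna1g at 1.59, Cacna1h at 0.867 and Cacna1i at 0.651. FT replicate 2 alone held 26 of the 55 ExcitNeuron cells. Over the 3 neuron types summed, it had the highest Cacna1g (2.16, median of 9 replicates 0.483) and Cacna1h (1.41, median 0.570). How far these peaks rest on that replicate was not tested. The pores of release sites were split, with Cacna1a (P/Q type) at 5.95 and Cacna1b (N type) at 1.66 highest in ExcitNeuron and Cacna1e at 5.01 highest in InhibNeuron. Cacng7 was the single gene highest in OPC, at 1.29 per 10000 from 65 UMIs.

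Sequences are shown for 4 of the members described, as examples of the letters that a search found in their promoters. RefSeq promoters of the assembly GRCr8, 250 bases before to 50 after each start, were available for 26 of the 39 genes. Each line gives 30 bases on the gene's own strand, 5′ to 3′, with the motif in capitals.
Cacng8 (chr1:74691171-74691200, minus strand): ttttgcctccacCAGCTGaagaccatgact
Cacng3 (chr1:186632346-186632375, plus strand): aagctgtcccttCAGCACCacggacctcca
Cacna2d3 (chr16:4918986-4919015, minus strand): gagaggcaggagGGGCGGcgcgcggcggag
Scn8a (chr7:133861000-133861029, plus strand): gagcgagccggcGGGCGGgcgcgcccggca
CAGCTG is an E-box, CAGCACC a core of the element bound by the neuronal repressor REST, and GGGCGG the GC box. Searched on both strands, CAGCTG was in 8 of the 26 promoters (30.8%) and in 16.2% of all 27457. CAGCACC was in 1 (3.85%, against 7.48% of all) and GGGCGG in 14 (53.8%, against 36.0%). Such a match is a description of letters and not a measured binding site.

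Neurons, taken as Granule, InhibNeuron and ExcitNeuron together (321 cells), held 64.4 channel UMIs per 10000, OPC (87 cells) 22.1 and the other glia (629 cells) 11.7. Against the other glia, 17 members passed the filter of 0.5 UMIs per 10000, and 9 of them were at least 2-fold higher in neurons in each of 9 replicates, where 6.43% of all tested genes were. None was at least 2-fold higher in glia in each replicate, where 6.26% of all genes were. The largest ratios were those of Cacng8, a TARP (1.397 against 0.0682 per 10000, 20.5-fold), and the sodium pore Scn1a (1.20 against 0.0871, 13.7-fold). Next came the L-type pore Cacna1d (3.89 against 0.330, 11.8-fold), the sodium pore Scn2a1 (2.41 against 0.2196, 10.98-fold) and the sodium beta subunit Scn3b (3.13 against 0.311, 10.1-fold). Cacna1c, Cacnb2, Cacna2d1 and Cacna1a completed the 9, at 9.37-, 7.77-, 7.70- and 6.21-fold. Of the 17 that passed the filter, 10 were under it in the other glia and passed through their level in neurons, among them 5 of the 9 (Cacng8, Scn1a, Cacna1d, Scn2a1 and Scn3b), whereas the other 4 were above it on both sides. These are descriptions of clusters, and the count carries no test and supports nothing further.

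The separation from OPC was narrower. In the 7 replicates with at least 5 cells on both sides, 1 of 19 members was at least 2-fold higher in neurons in every replicate, where 1.11% of all tested genes were. This was Scn3b. In neurons it was at 2.77, 3.64, 3.65 and 2.09 UMIs per 10000 in FT replicates 1, 2, 4 and 5, and at 3.57, 1.35 and 2.88 in Sham replicates 1, 2 and 5. In OPC it was at 0.4934, 0.317, 0.888 and 0.211 in the same FT replicates, and at 0.372, 0.386 and 0.00 in the same Sham replicates. The lowest neuron value lay above the highest OPC value, and the sums gave 3.09 against 0.430, a 7.19-fold difference. With OPC under the filter, it too passed through its level in neurons. Scn1a, which set neurons apart from other glia, was at 1.15 in neurons and 0.730 in OPC, higher in neurons in 5 of 7 replicates. With classes rebuilt from the new clusters, 3 of 20 members were 2-fold higher than in OPC in every replicate (3.09% of all genes) and 13 of 17 than in other glia (10.2%). None was at least 2-fold higher in OPC throughout by the type names, where 2.54% of all genes were. A pair of TARPs leaned that way and were singled out after their values were seen. Cacng7 was at 0.522 in neurons and 1.27 in OPC, higher in OPC in 6 of 7 replicates, and Cacng4 at 0.285 and 0.795, higher in OPC in 5 of 7.

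**Figure D2:**
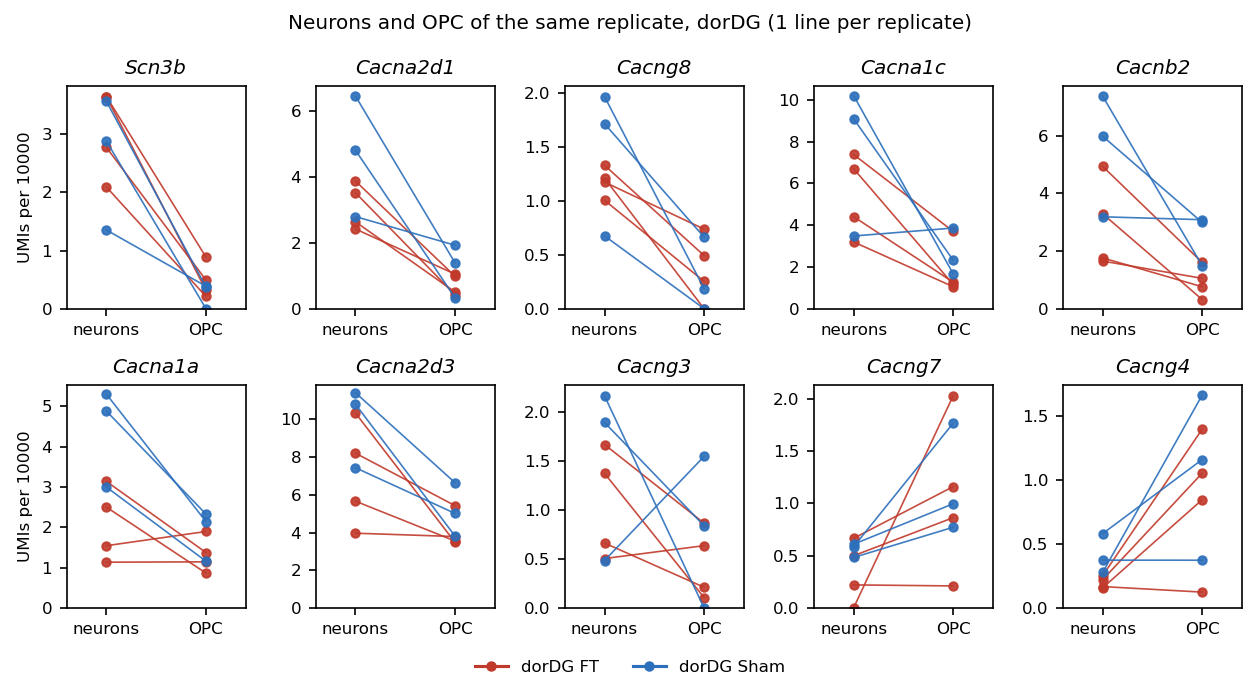
UMIs per 10000 (linear axes from 0) of 10 channel genes in neurons (Granule, InhibNeuron and ExcitNeuron summed) and OPC of dorDG, with a line joining the values of each replicate, coloured by FT or Sham. Scn3b is separated from OPC in all 7 replicates, while Cacng7 is higher in OPC in 6 of 7.

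Ribosome-poor cells were unevenly spread over these classes and carried more channel UMIs in every type. They made up 79.6% to 80.0% of the 3 neuron types, 27.6% of OPC and 33.4% of the other glia. Within the types, the summed channel level was 26.8 to 85.5 per 10000 in cells under 2% ribosomal UMIs and 6.28 to 46.6 in the rest. Over all dorDG cells, 15 members passed the filter and all 15 were higher in ribosome-poor cells, by 2.69-fold (Cacna1e) to 7.64-fold (Cacna1a). Of these, 4 (Cacng3, Scn3b, Cacna2d3 and Cacna1a) were at least 2-fold higher in each of 9 replicates, where 6.59% of all tested genes were.

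The neuron comparison was therefore repeated within each class of cells. In ribosome-rich cells alone, neurons held 37.5, OPC 18.2 and other glia 7.87 channel UMIs per 10000, and 9 of 13 tested members were at least 2-fold higher than in other glia in every replicate, where 10.3% of all genes were. Summed over ribosome-rich other glia, only Cacna1e (1.19) and Cacna2d3 (1.74) were above 0.5. The rest of the tested members passed the filter through their level in neurons, so this count carries no test and supports nothing further. In ribosome-poor cells alone the levels were 75.4, 44.9 and 35.2, and 1 of 21 members was 2-fold higher than in other glia in every replicate, where 0.0448% of all genes were. The order of the 3 classes was the same in both. Scn3b stood at 3.23 in ribosome-rich neurons against 0.350 in ribosome-rich OPC (15 UMIs), and at 3.08 against 0.814 (6 UMIs) in ribosome-poor cells. Cacng7 was at 0.1495 against 1.42 in ribosome-rich cells, and at 0.736 against 0.543 (4 UMIs in OPC) in ribosome-poor cells, where the direction turned. Cacng4 was higher in OPC in both, at 0.0561 against 0.676 and 0.337 against 1.63.

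**Figure D3:**
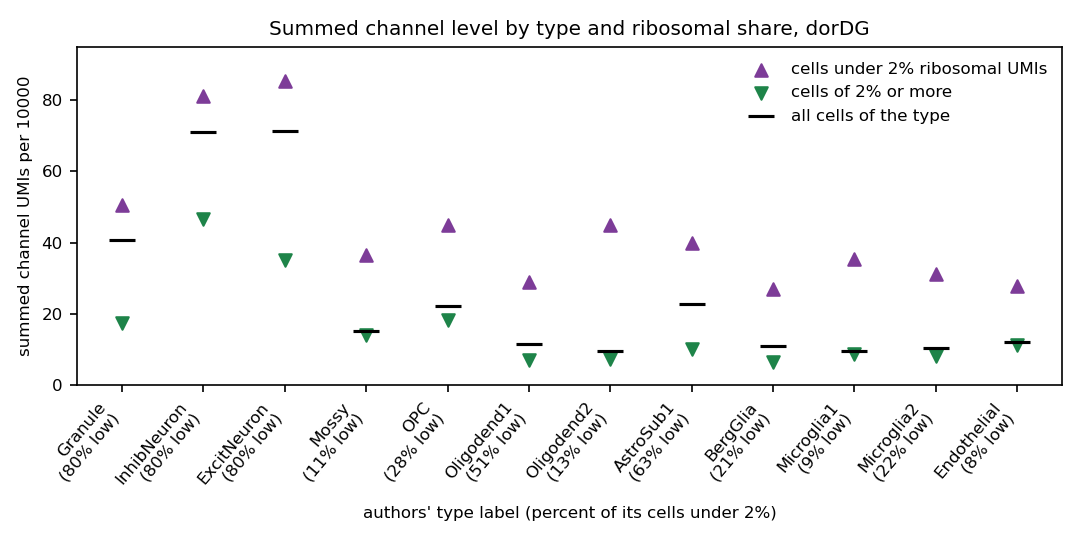
Summed channel UMIs per 10000 in each dorDG type, for cells under 2% ribosomal UMIs (up triangles), the rest (down triangles) and all cells (dashes). In every type the ribosome-poor cells are higher, and ExcitNeuron and InhibNeuron lead in both.

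Whether fluoxetine moved these genes in dorDG was asked first over all cells of a replicate. The summed channel level was 22.7, 25.1, 14.7 and 14.8 UMIs per 10000 in FT replicates 1, 2, 4 and 5. It was 35.5, 17.9, 64.7, 30.9 and 35.4 in Sham replicates 1 to 5. Sham replicate 3 was the highest, and Sham replicate 2 lay within the FT range. The means were 19.3 ± 5.37 (SD, n = 4) and 36.9 ± 17.1 (SD, n = 5), with a two-sided exact permutation p of 0.0476 and 0.0952 after adjustment over both regions, where 0.00794 is the smallest p allowed. In venDG the values were 23.4, 25.4, 14.2, 18.8 and 24.8 in FT and 22.1, 26.5, 31.0, 19.4 and 16.02 in Sham. Those groups overlapped throughout (21.3 ± 4.74 and 23.0 ± 5.88, SD, n = 5 each, exact permutation p = 0.627).

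Gene by gene, 11 members passed the filter in dorDG, and 9 of them fell with FT at the study's thresholds, an adjusted p of at most 0.2 and a log2 fold change of at least 0.32 in size. None rose. Over all genes tested 28.6% were called, 16.1% lower in FT. The median log2 fold change was -0.92 over the 11 members and -0.04 over all genes. Cacna1a, the P/Q pore, was at 0.940, 1.41, 0.571 and 0.839 UMIs per 10000 in the FT replicates and at 2.32, 1.23, 5.01, 2.20 and 2.22 in the Sham replicates. Sham replicate 3 was far above the others, and Sham replicate 2 lay below FT replicate 2. It fell by 1.34 on the log2 scale (SE 0.34, edgeR quasi-likelihood test, Benjamini-Hochberg adjusted p = 0.155).

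The calcium beta subunit Cacnb2 was at 1.95, 1.44, 1.08 and 1.35 in FT and at 3.38, 1.56, 7.11, 3.04 and 3.07 in Sham (log2 fold change -1.20, SE 0.35, edgeR adjusted p = 0.155). All Sham replicates but the second were above every FT replicate. The sodium pore Scn2a1 was at 0.698, 0.441, 0.471 and 0.411 in FT and at 1.30, 0.346, 2.24, 1.13 and 1.28 in Sham (-1.19, SE 0.36, edgeR adjusted p = 0.155), so that Sham replicate 2 was the lowest of the 9. Scn8a, the sodium pore of mature axon initial segments, was at 1.25, 1.08, 0.756 and 0.702 in FT and at 1.83, 0.881, 3.73, 2.02 and 2.05 in Sham (-1.02, SE 0.32, edgeR adjusted p = 0.155). Sham replicate 2 again lay within the FT range. The other 5 that fell were Cacna1d (-1.09), Cacna2d1 (-0.92), Cacna2d3 (-0.86), Scn3b (-0.69) and Cacna1e (-0.59), with edgeR adjusted p from 0.162 to 0.198. Cacna1c (-0.68) and the TARP Cacng3 (-0.61) did not pass.

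Genes whose products work with these channels were counted in the same fit. Of a list of 29 measured partners (intracellular fibroblast growth factors, ankyrins, calmodulins, release site scaffolds, calcium pumps, exchangers and store channels), 22 were tested, 16 fell and 0 rose, beside the 16.1% of all genes called as lower in FT. None of the partners tested was called in ribosome-rich cells, in ribosome-poor cells, within the 3 neuron types, outside them, or with the replicate number as a block. Few or no genes of any kind were called in those fits (shares below), so this is not read as a result about the partners.

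**Figure D4:**
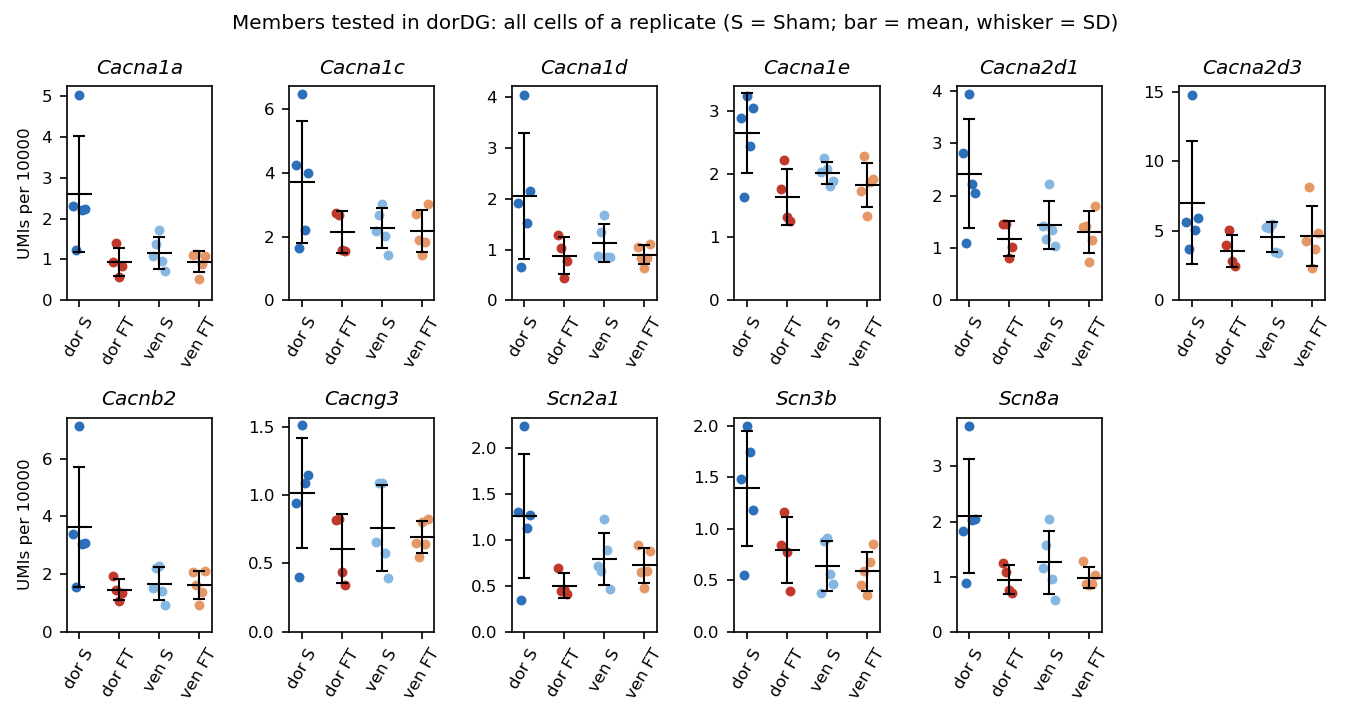
UMIs per 10000 of the 11 channel genes tested over all cells, in each replicate of dorDG FT, dorDG Sham, venDG FT and venDG Sham, with means and SD (n = 4, 5, 5 and 5). dorDG Sham has the highest mean for all 11 genes and the widest spread, with 1 replicate reaching 14.8 for Cacna2d3.

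In parts of the cells few genes of any kind were called. By edgeR, none of the 9 tested members was called in ribosome-rich cells alone (0% of all genes), where the median log2 fold change was 0.02 and 0 had an unadjusted p under 0.05. In ribosome-poor cells alone 0 of 22 were called, where 0.525% of all genes were (median -0.27, 4 at an unadjusted p under 0.05). Within the 3 neuron types 0 of 21 were called, as was 0% of all genes (median -0.35, 3 at that p), and outside them 0 of 8, where 0.0255% of all genes were (median -0.31, 2 at that p). For Cacna1a the log2 fold change was -0.13 in ribosome-rich cells (edgeR adjusted p = 0.9996), -0.73 in ribosome-poor cells (0.453), -0.99 in the neuron types (0.399) and -0.52 outside them (0.475). Leaving out FT replicate 4 or 5, or Sham replicate 1, 3 or 5, left 0 members called and at most 0.0235% of all genes. The other omissions left 7 to 13 members called, where 11.1% to 46.8% of all genes were. A fit blocked on replicate number called 0 of 11 (0% of all genes, 5 members at an unadjusted p under 0.05), and Cacna1a was at -1.04 with an edgeR adjusted p of 0.216. Shares of all genes at an unadjusted p under 0.05 are not given, so the counts at that p are not read as results about the members. How much of the difference came with the shares of ribosome-poor and neuron-like cells given above was not tested.

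The summed level behaved alike. In ribosome-rich cells it was 13.6 ± 0.793 in FT and 14.3 ± 4.37 in Sham (SD, n = 4 and 5, exact permutation p = 0.762). In ribosome-poor cells it was 45.7 ± 15.8 and 65.8 ± 17.8 (exact permutation p = 0.0952). In replicates 1 and 2, where reactions can be separated, first reactions averaged 14.8 in FT and 9.03 in Sham, and second reactions 61.2 and 52.9, so the direction turned in both (2 against 2, exact permutation p = 0.333 and 1, smallest possible 0.333).

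**Figure D5:**
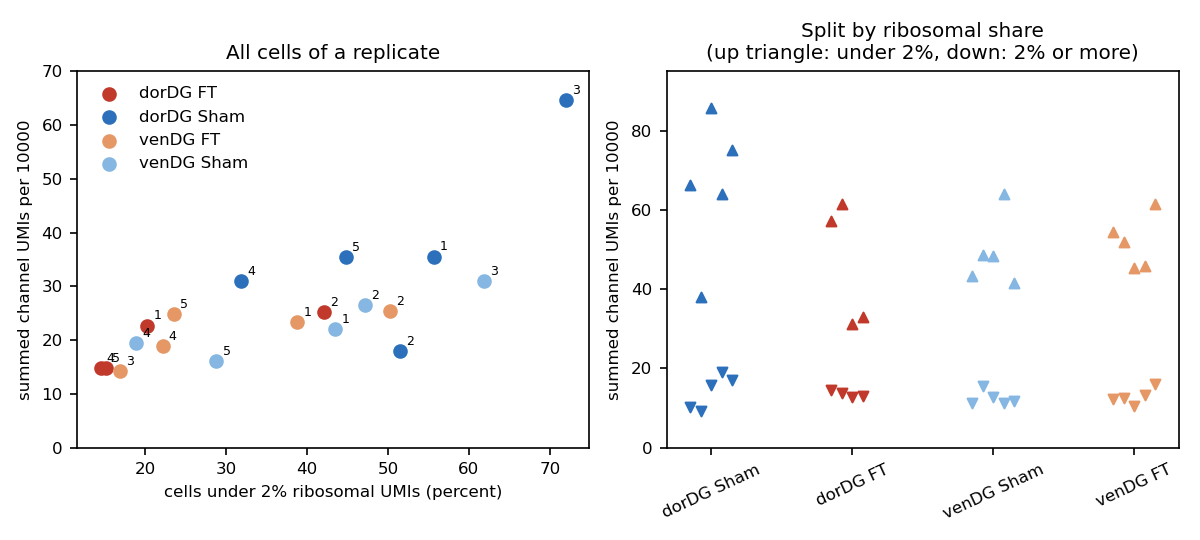
Left, summed channel UMIs per 10000 of each replicate against its percentage of cells under 2% ribosomal UMIs. Right, the same level within ribosome-rich and ribosome-poor cells. Numbers beside the points are replicate numbers. dorDG Sham replicate 3 lies at the upper right (72.0%, 64.7), and the ribosome-rich cells of all 19 replicates lie between 9.20 and 19.1.

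In venDG, 0 of 12 members were called by edgeR, as were 0 of 4079 genes (0% called). None had an unadjusted p under 0.05, and DESeq2 called 0 members and 18 genes. The lowest p-values were those of Scn8a (log2 fold change -0.36), Cacna1d (-0.32) and Cacna1a (-0.30), with edgeR adjusted p of 0.778, 0.778 and 0.813. Whether the effect of fluoxetine differed between the regions was tested as an interaction. It called 0 of 11 members and 0 of 4161 genes (0% called), with 3 members at an unadjusted p under 0.05 (share of all genes not given). With the replicate number as a block, which the data pair across regions, 5 of 11 were called, each more negative in dorDG, where 10.3% of all genes were called and 6.22% in that direction. These were Cacnb2 (-1.25, SE 0.34), Cacna1a (-1.18, SE 0.31), Scn2a1 (-1.10, SE 0.35), Cacna2d3 (-0.94, SE 0.31) and Cacna2d1 (-0.92, SE 0.25), with edgeR adjusted p from 0.141 to 0.178. This comparison shares its dorDG samples, and their ribosome-poor cells, with the comparison above.

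Within single dorDG types the members gave few calls. In Oligodend1, myelinating cells that hold 11.4 channel UMIs per 10000, 1 of 7 members was called, where 6.15% of all genes were and 2.65% were called as lower in FT. Cacna1c was at 0.399, 0.834, 0.273 and 0.575 UMIs per 10000 in FT replicates 1, 2, 4 and 5, from 2 to 8 UMIs each. It was at 1.07, 2.02, 2.96, 0.965 and 1.90 in the Sham replicates, from 4 to 20 UMIs each. The groups did not overlap, and Cacna1c fell by 1.53 on the log2 scale (SE 0.44, edgeR adjusted p = 0.147). DESeq2 gave -1.63 with an adjusted p of 0.259, and in ribosome-rich cells edgeR gave -1.44 with 0.997. Leaving out any 1 of FT replicates 1, 4 and 5 or Sham replicates 2 and 3 ended the call. Cacnb2 (-1.16) and Cacna2d1 (-1.27) did not pass (edgeR adjusted p = 0.236 and 0.241).

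In InhibNeuron, 0 of 21 members were called by edgeR and 0 of 4657 genes (0% called). An unadjusted p under 0.05 was met by 7 members, and DESeq2 called 2. The matching shares of all genes are not given, so neither count is read as a result about the members. Cacna1a was at 2.20, 1.94, 2.00 and 2.58 in FT replicates 1, 2, 4 and 5, from 8 to 27 UMIs each, and FT replicates 4 and 5 held fewer than 5 cells of this name. It was at 4.56, 5.21, 3.66 and 5.35 in Sham replicates 1, 3, 4 and 5, from 49 to 132 UMIs each. The groups did not overlap. The log2 fold change was -0.99 (SE 0.29, edgeR adjusted p = 0.227), and DESeq2 gave -1.01 with an adjusted p of 0.129. In ribosome-rich InhibNeuron cells it was 0.47 (SE 0.52, edgeR adjusted p = 0.998) and in ribosome-poor ones -1.41 (SE 0.54, 0.720).

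The calcium beta subunit Cacnb3 leaned upward in InhibNeuron, at 0.895, 1.59, 0.250 and 0.703 in FT against 0.276, 0.191, 0.299 and 0.418 in Sham. FT replicate 4, with 1 UMI, overlapped the Sham range. Its log2 fold change was 1.75 (SE 0.51) with an edgeR adjusted p of 0.227, and DESeq2 gave an adjusted p of 0.157. Cacna1e was at 3.50, 3.18, 2.25 and 2.11 in FT and at 6.49, 5.31, 4.19 and 6.18 in Sham. Every Sham replicate was above every FT replicate, yet the difference did not pass (-0.86, SE 0.30, edgeR adjusted p = 0.245). Without FT replicate 1 edgeR called 7 members and 16.2% of all genes, and without Sham replicate 4 it called 11 and 29.5%. A replicate block gave 3 calls (Cacna1a, Cacna1e and Cacnb2, each lower in FT), where 16.7% of all genes were called and 3.87% as lower in FT.

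In the 8 other types with enough cells, none of 72 pairs of member and type was called by edgeR, where 0.0133% of all 29969 gene and type pairs were. Of the 72 log2 fold changes, 56 were negative, 16 were positive, and 7 had an unadjusted p under 0.05. The matching shares over all gene and type pairs are not given, and the 8 types share the same replicates. These counts are therefore not read as a result about the members. Scn1a in OPC had the lowest p. It was at 0.370, 0.00, 0.634 and 0.211 UMIs per 10000 in FT replicates 1, 2, 4 and 5, from 0 to 5 UMIs, and at 1.21, 1.93 and 2.33 in Sham replicates 1, 2 and 5, from 5 to 13 UMIs. The groups did not overlap, but the log2 fold change of -2.35 (SE 0.64) had an edgeR adjusted p of 0.595. Next came Scn8a in Granule (-1.52, SE 0.55) and Cacna1c in Endothelial (-1.24, SE 0.46), with edgeR adjusted p of 0.549 and 0.823.

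Between the regions, the main model held treatment and no block on replicate number. By edgeR 0 of 11 members were called over all cells, where 0.192% of all genes were and 0.0481% were called as lower in dorDG. At an unadjusted p under 0.05 there were 2 members, and DESeq2 called 1, Scn3b, in each case without the share of all genes being given. Scn3b ranged from 0.394 to 1.16 in dorDG FT and from 0.553 to 2.00 in dorDG Sham, against 0.361 to 0.852 in venDG FT and 0.373 to 0.908 in venDG Sham. The ranges overlapped, and the log2 fold change of dorDG over venDG was 0.78 (SE 0.24, edgeR adjusted p = 0.443, DESeq2 0.174). Cacna1a (0.57) and Cacnb2 (0.48) followed, with edgeR adjusted p of 0.796 and 0.876.

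To compare like cells, both regions were clustered together without the channel genes, and clusters were named by their markers. OPC-like cells (86 in dorDG, 192 in venDG) held 20.1 and 20.8 channel UMIs per 10000. By edgeR 0 of 14 members were called, where 0.0458% of all genes were, and DESeq2 also called 0. The 1 member with an unadjusted p under 0.05 was Cacng7, with a lowest, median and highest replicate of 0.211, 1.02 and 2.03 per 10000 in dorDG (n = 7) and 0.131, 0.604 and 1.29 in venDG (n = 9). The ranges overlapped (log2 fold change 1.05, SE 0.34, edgeR adjusted p = 0.591). Scn8a (-0.64) and Cacna2d1 (-0.60) leaned toward venDG with edgeR adjusted p of 0.921 and 0.938.

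Neuron-like cells (250 in dorDG, 291 in venDG) held 69.9 and 59.8 channel UMIs per 10000. Of 23 members 1 was called, where 2.01% of all genes were and 1.24% were called as lower in dorDG. It was Cacna1b, the N-type pore of release sites. Its lowest, median and highest replicates were 0.152, 1.10 and 2.00 in dorDG and 1.26, 1.95 and 2.47 in venDG (n = 9 each), with overlap. It was lower in dorDG by a log2 fold change of -0.83 (SE 0.24, edgeR adjusted p = 0.152). The clusters that made up the class differed. Cluster 7, led by granule cell genes such as Plk5, held 45.6% of the dorDG and 17.9% of the venDG neuron-like cells, while clusters 18 (Cnr1, Cck) and 19 (Sst, Gad1) held 19.9% and 17.9% in venDG and 4.8% and 2.4% in dorDG. Within clusters 7 and 11 alone, chosen after the values were seen, the log2 fold change was -0.73 with an edgeR adjusted p of 0.409. Scn3b (0.55) and Cacng8 (0.43) leaned toward dorDG, with edgeR adjusted p of 0.314 and 0.572.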

How the data were processed

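The authors aligned the reads and counted UMIs per gene and cell with Cell Ranger 2.1.0. Per the study's methods, RCA2 assigned cells to major types on a mouse brain reference and was used to filter them by type. Seurat 3 then gave subclusters, which were named by known marker genes. Per the labels the processing notes list the build rn5. The deposited tables hold raw UMI counts (10x Genomics 3′ v2 libraries, 108 of them in 27 reactions). The authors' metadata gave type names and a total count per dorDG cell, which equalled the summed counts in all 1289 cells. The authors' log-normalized venDG values were not used. Of the venDG columns, 170 carried a second suffix that no label explains and were left out, and 0 columns remained unmapped.

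The members and lists were chosen with earlier results of these data known. One member is counted but not reported here by name. Counts were summed per replicate (group and replicate number of the labels) and divided by all UMIs of those cells, times 10000. Testing took the genes whose mean reached 0.5 UMIs per 10000 and used edgeR 4.0.16 in R 4.3.3 (TMM, quasi-likelihood test, Benjamini-Hochberg over all genes tested), with a type entered where 3 or more replicates of both groups held 5 or more of its cells. InhibNeuron used replicates with at least 1 cell. ExcitNeuron and BergGlia had too few replicates for a fit. A gene was called at an adjusted p up to 0.2 if its log2 fold change was 0.32 or more in size, as in the study's methods. Shares of all genes at an unadjusted p under 0.05 are not given, so counts at that p are not read as results about the members. Summed levels were compared by exact two-sided permutation tests (scipy 1.17.1). Both regions were clustered with scanpy 1.11.5 (2000 variable genes without the members, 30 components, 15 neighbours, Leiden resolution 2.0). Unnamed were 132 dorDG and 204 venDG cells. No doublet caller was run. On simulated counts for FT against Sham over all dorDG cells (4262 genes), 88.2% of 93 genes changed 2-fold and 100% of 79 changed 4-fold were called. So were 31 unchanged genes. In the real counts, leaving out FT replicate 4 or 5, or Sham replicate 1, 3 or 5, left at most 0.0235% of all genes called. The simulated recovery therefore cannot be carried over to the real counts.

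Genes named were the 3 members with the highest level in each type, all members called, the 3 with the lowest p where fewer than 3 were called, the 5 largest ratios in each comparison of neurons with glia, and Cacna1a. Other members were named as examples of their role group after their values were seen. Alternatives were DESeq2 1.42.0, RLE size factors, a filter of 0.1, the replicate number as a block, ribosome-poor or ribosome-rich cells, first or second reactions, a 4-fold ratio, Mossy as neurons, rebuilt clusters, and each replicate left out. Deviations of same-numbered replicates correlated between dorDG and venDG by 0.113 to 0.395 in FT (4 of 4 pairs above 0.1, 3 best with their own number). In Sham they did so by 0.210 to 0.564 (5 of 5 above 0.1, 4 best with their own number). The numbers could therefore pair regions, but the main fits between regions and of the interaction carried no block. The block on number was run as an alternative. The lowest chi-square per degree of freedom between replicates of a group was 3.31, so no library was counted as a repeat.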

Additional observations from a re-analysis of the deposited data

Results flagged for a closer look

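In 4 of 50 groups of replicates 1 value stood apart from the others by Dixon's criterion, which chance alone meets in about 1 of 20 groups. In dorDG Sham replicate 3, Cacna1a was at 5.01 UMIs per 10000 over all cells (the others 1.23 to 2.31) and Cacna2d3 at 14.8 (the others 3.70 to 5.90). The same replicate had the largest share of ribosome-poor cells, 72.0%. In dorDG FT replicate 4 the summed channel level was 6.92 in Endothelial (the others 10.5 to 11.2) and 18.3 in Oligodend2 (the others 6.16 to 7.51).

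For 5 members the change with fluoxetine differed between the regions when the replicate number was a block. The difference of the log2 fold changes, dorDG less venDG, was -0.92 for Cacna2d1, -1.10 for Scn2a1, -1.25 for Cacnb2, -0.94 for Cacna2d3 and -1.18 for Cacna1a. Without the block none of the 5 was called by edgeR.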

How the results depend on the processing

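The 9 members that fell with FT over all dorDG cells became 2 at a filter of 0.1 and 0 with the replicate block, in ribosome-rich cells, in ribosome-poor cells, in first reactions, in second reactions, in the 3 neuron types and outside them (the last 2 added after the data were seen). The cause was not tested. The other counts that moved were Oligodend1 (1 called, 0 with DESeq2 and in ribosome-rich cells), InhibNeuron (0 called, 2 with DESeq2 and 3 with the replicate block), the regions over all cells (0 called, 1 with DESeq2), neuron-like cells (1 called, 0 at a filter of 0.1 and in clusters 7 and 11 alone), and the interaction (0 called, 5 with the replicate block). Neurons against OPC went from 1 to 0 at 4-fold and to 3 at a filter of 0.1, in ribosome-rich cells and with rebuilt clusters. Neurons against other glia went from 9 to 1 in ribosome-poor cells. For the DESeq2 counts in InhibNeuron and between the regions, the share of all genes called by DESeq2 is not given.

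With 1 replicate left out at a time, members called ranged from 0 to 13 in dorDG, 0 to 0 in venDG, 0 to 3 in Oligodend1, 0 to 11 in InhibNeuron, 0 to 0 in the other types, 0 to 1 between regions over all cells, 0 to 0 in OPC-like cells, 0 to 1 in neuron-like cells, and 0 to 3 for the interaction (3 without dorDG Sham replicate 2). The 13 in dorDG came with 46.8% of all genes called, and the 11 in InhibNeuron with 29.5%. For Oligodend1, the regions and the interaction that share is not given. Cacna1b lost its call without dorDG FT replicate 1, dorDG Sham replicate 3, venDG FT replicate 3 or venDG Sham replicate 1, and Scn3b gained one between regions without dorDG FT replicate 5. The counts of neurons ranged from 1 to 3 against OPC and from 9 to 11 against other glia, and from 0 to 0 for members higher in OPC. The difference in summed level ranged from -22.3 to -10.6 UMIs per 10000 in dorDG, and from -3.40 to 0.342 in venDG, where it turned to 0.121 without FT replicate 3 and to 0.342 without Sham replicate 3.

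The direction of the summed level turned in dorDG to 5.80 in first and 8.30 in second reactions, and in venDG to 0.397 in ribosome-rich cells, 2.64 in ribosome-poor cells, 0.159 in first and 10.1 in second reactions. In dorDG, log2 fold changes turned positive in first reactions for Cacna1a (0.38), Cacnb2 (0.57), Scn8a (0.71), Cacna2d1 (0.39), Cacna1e (0.23) and Cacna2d3 (0.35). They did so in second reactions for Scn8a (0.27), Cacna2d1 (0.089), Cacna1d (0.035), Cacna1e (0.051), Cacna2d3 (0.47) and Scn3b (0.16), in ribosome-rich cells for Scn8a (0.018), Cacna2d1 (0.041), Cacna1d (0.24) and Scn3b (0.23), and in the neuron types for Scn3b (0.36). In venDG they turned in ribosome-rich cells for Scn8a (0.20) and Cacna1d (0.14), in first reactions for Cacna1d (0.18) and Cacna1a (0.21), and for Cacna1a in ribosome-poor cells (0.0081) and second reactions (0.042). In ribosome-rich cells Cacna1a also turned in InhibNeuron (0.47) and in the interaction (0.088). No cause was tested.

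Between FT and Sham the same replicate numbers correlated by -0.249 to 0.393 in dorDG (3 of 4 above 0.1, 1 of 4 best with its own number) and -0.201 to 0.281 in venDG (4 of 5 above 0.1, 3 of 5 best with their own number), so the numbers were not treated as pairing treatments. The study's methods state parallel handling of FT and Sham only for frozen tissue of other assays. In the labels, however, the reactions are numbered in order of replicate number, with FT and Sham of the same number side by side. Whether they shared a batch is not stated, and fits blocked on that number are given above. The block across regions changed no call but that of the interaction. Too few replicates held enough cells to fit ribosome-poor Oligodend1, OPC-like, Endothelial and both Microglia cells, ribosome-rich neuron-like, Granule and AstroSub1 cells, or either kind of Mossy, OPC and Oligodend2 cells. Members under 20 UMIs, such as Scn4b, allow no statement on change at this depth.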
